A study of Homo sapiens with 6 samples.

Results

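The Kruppel-like factors described here are 10 genes of 1 transcription factor family (KLF2, KLF3, KLF4, KLF5, KLF6, KLF7, KLF9, KLF10, KLF11 and KLF13) out of 18417 genes measured on 6 whole-transcript expression arrays. They were taken from a list of names, which was drawn up with earlier results of these data known. All 10 had a probe set whose platform annotation gave 1 gene symbol, and the brightest such probe set stood for the gene. RNA came from WM164, a human melanoma cell line that carries mutant BRAF and was derived from a lymph node metastasis. The Parent group (3 arrays) held cells given DMSO, the vehicle. The IDTC group (3 arrays), named for induced drug tolerant cells, held cells kept for 16 days in PLX4032 at 500 nM, with the drug medium renewed every 3 days. PLX4032, or vemurafenib, blocks the mutant BRAF kinase. Both groups grew in RPMI with 5% FCS. The labels give no duration for DMSO and do not say whether the replicates were separate experiments. The p-values thus rest on a spread between samples that may be partly technical. All values come from 1 cell line, in bulk, where fewer cells with a transcript and less transcript per cell cannot be told apart.

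Kruppel-like factors bind GC-rich and CACCC sequences through C2H2 zinc fingers at the C-terminal end, a domain they share with the SP factors. The more variable N-terminal part sets what a member does. KLF3, KLF8 and KLF12 recruit the corepressor CtBP, and KLF9, KLF10, KLF11, KLF13, KLF14 and KLF16 recruit SIN3 with its histone deacetylases. KLF1, KLF2, KLF4, KLF5, KLF6 and KLF7 are mainly known as activators. Several members are early response genes of growth factor, TGF-beta, glucocorticoid or shear stress signals, and members are known to act in cell cycle exit and differentiation.

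The promoter sequences of 4 members are shown as examples of 2 genes that rose (KLF6 and KLF13) and 2 that were not called (KLF2 and KLF4). Each is the 250 bases before the annotated start, 5′ to 3′ on the strand of the gene, from RefSeq on GRCh38.p14. The windows are chr10:3785210-3785459 on the minus strand, chr15:31326585-31326834 on the plus strand, chr19:16324576-16324825 on the plus strand and chr9:107489770-107490019 on the minus strand. The distal end of the KLF2 window overlaps the annotated noncoding gene KLF2-DT. Capitals mark every match, on either strand, to the GC box, the E-box and the MEF2 element.
KLF6: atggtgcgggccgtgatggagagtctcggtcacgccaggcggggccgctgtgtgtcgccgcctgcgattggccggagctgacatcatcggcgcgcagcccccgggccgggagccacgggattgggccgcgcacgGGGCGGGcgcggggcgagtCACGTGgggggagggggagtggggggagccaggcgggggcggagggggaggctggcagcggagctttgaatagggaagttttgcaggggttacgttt
KLF13: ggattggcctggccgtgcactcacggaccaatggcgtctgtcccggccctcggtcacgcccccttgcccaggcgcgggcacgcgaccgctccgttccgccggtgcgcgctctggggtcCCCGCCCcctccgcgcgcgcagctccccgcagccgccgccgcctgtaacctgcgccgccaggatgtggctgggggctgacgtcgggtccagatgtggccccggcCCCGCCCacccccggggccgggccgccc
KLF2: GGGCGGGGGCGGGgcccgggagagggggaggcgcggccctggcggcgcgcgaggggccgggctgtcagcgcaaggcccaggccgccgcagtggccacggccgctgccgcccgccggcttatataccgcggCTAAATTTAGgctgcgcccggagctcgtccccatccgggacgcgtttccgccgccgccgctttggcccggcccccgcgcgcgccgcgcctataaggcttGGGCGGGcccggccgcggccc
KLF4: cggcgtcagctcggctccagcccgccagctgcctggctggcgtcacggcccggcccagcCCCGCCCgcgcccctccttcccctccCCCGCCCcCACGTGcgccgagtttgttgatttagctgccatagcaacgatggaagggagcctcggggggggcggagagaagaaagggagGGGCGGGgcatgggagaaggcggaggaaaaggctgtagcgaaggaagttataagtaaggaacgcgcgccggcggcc

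The motifs searched on both strands were the GC box GGGCGGG and the CACCC box, which are the letters that KLF and SP factors bind, the E-box CACGTG, the cAMP response element TGACGTCA, the serum response element and the MEF2 element. The RefSeq promoter table matched 8 of the 10 members, at 13 annotated starts, and KLF3 and KLF10 were not among them. At least 1 GC box stood before 8 of these 13 starts, in 7 genes, and 31.5% of all 35116 promoters held one. The CACCC box stood before 6 of the 13 starts, in 4 genes, and in 54.7% of all promoters. In the windows shown, KLF2 and KLF4 had 3 GC boxes each, KLF13 had 2 and KLF6 had 1. The first 2 GC boxes of KLF2 overlap by 1 base, and a GC box of KLF13 overlaps a CACCC box by 1 base. An E-box was found before 4 of the 13 starts, in KLF4, KLF6, KLF7 and KLF11, and in 6.34% of all promoters. The MEF2 element had 1 match among the members, the letters CTAAATTTAG at -120 to -111 from the KLF2 start, and occurred in 2.8% of all promoters. A serum response element was found only before 1 of the 4 starts of KLF7 (1.16% of all promoters) and a full cAMP response element only before 1 of the 2 starts of KLF11 (1.65%), where it overlaps a CACCC box by 2 bases. The GC content of these upstream windows had a median of 70.8% over the 13 starts and 58% over all promoters. Some windows of genes with several starts lie inside longer transcripts of the same gene.

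Among the 10 members, 6 rose in the drug-tolerant cells (KLF11, KLF3, KLF7, KLF13, KLF6 and KLF9), 1 fell (KLF5) and 3 were not called (KLF2, KLF4 and KLF10). The rises ran from 1.30-fold to 1.96-fold and the fall of KLF5 was 1.50-fold. A gene was called at an adjusted p under 0.05 in limma, with Benjamini-Hochberg adjustment over all 18417 genes, and only such genes are said to have risen or fallen. In this comparison 46.6% of all genes were called, 21.7% higher and 24.9% lower. No member changed by 2-fold or more, as 9.21% of all genes did, but with quantile normalization KLF11 reached a log2 fold change of 1.02 and KLF3 one of 1.00. The groups did not overlap for 8 of the members and for 54.1% of all genes. The median log2 fold change was 0.44 over the members and -0.01 over all genes. The 6 rises and the 1 fall were called under all 12 other ways of processing, which include re-centring, quantile normalization and leaving out any 1 array. The exception is KLF13, whose dimmer probe set was not called on its own. The direction is IDTC minus Parent throughout, levels are the deposited log2 expression values, and errors are SD for levels (n = 3) and SE for fold changes.

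**Figure D1:**
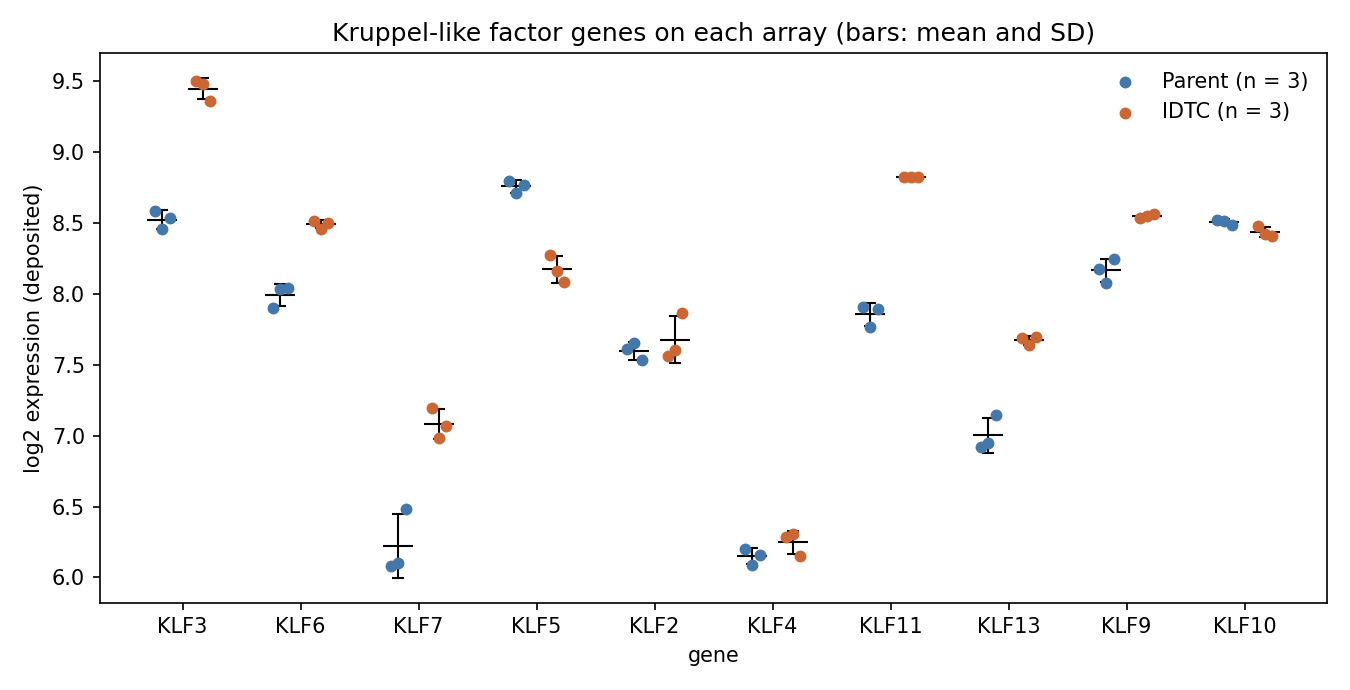
Deposited log2 expression (vertical axis) of the 10 Kruppel-like factor genes on each of the 3 Parent arrays (blue) and 3 IDTC arrays (orange), with the mean and SD of each group as bars. The groups are apart for KLF3, KLF6, KLF7, KLF11, KLF13 and KLF9 and, in the other direction, for KLF5 and narrowly for KLF10, and the heights of different genes are not comparable because each probe set has its own response.

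KLF3 is the member that represses through CtBP and is known from blood, fat and muscle cells. Its level was 8.58, 8.45 and 8.53 on the Parent arrays and 9.50, 9.48 and 9.36 on the IDTC arrays. Every IDTC array lay above every Parent array. The log2 fold change was 0.92 ± 0.06, or 1.90-fold (limma adjusted p = 1.8e-05), and it stayed between 0.89 and 1.00 under 12 alternatives.

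Among the members known mainly as activators, KLF7 and KLF6 rose, KLF5 fell, and KLF2 and KLF4 were not called. KLF7, which acts in neuronal development and survival of sensory neurons, read 6.08, 6.10 and 6.48 on the Parent arrays and 7.20, 6.99 and 7.07 on the IDTC arrays. The third Parent array was the highest of its group and still below all IDTC arrays. KLF7 rose by 0.86 ± 0.12 (1.82-fold, limma adjusted p = 6.1e-04), and by 0.99 without that array.

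KLF6, a broadly expressed factor that can induce CDKN1A and is deleted or mutated in some tumours, measured 7.90, 8.03 and 8.04 in Parent and 8.51, 8.46 and 8.50 in IDTC cells. The IDTC arrays were close together and above all Parent arrays. The rise was 0.50 ± 0.06 on the log2 scale (1.41-fold, limma adjusted p = 3.2e-04).

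KLF5 promotes proliferation in epithelia and smooth muscle and was the only member that fell. It stood at 8.79, 8.71 and 8.77 on the Parent arrays and at 8.27, 8.16 and 8.08 on the IDTC arrays, with no overlap. The log2 fold change was -0.59 ± 0.07 (1.50-fold lower, limma adjusted p = 2.1e-04), and it ranged from -0.64 to -0.52 under 12 alternatives.

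KLF2 and KLF4, factors of quiescent endothelium that are both induced through MEK5, ERK5 and MEF2, and of which KLF4 is also a reprogramming factor, were not called. KLF2 gave 7.61, 7.66 and 7.53 in Parent and 7.56, 7.60 and 7.86 in IDTC cells. The third IDTC array stood above the other 5, which overlapped. The KLF2 log2 fold change was 0.08 ± 0.09 (95% confidence interval -0.13 to 0.29, limma adjusted p = 0.52), and it was -0.02 without that array.

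KLF4 gave 6.20, 6.09 and 6.16 in Parent and 6.28, 6.30 and 6.15 in IDTC cells, and the groups overlapped. Its log2 fold change was 0.10 ± 0.06 (95% confidence interval -0.05 to 0.25, limma adjusted p = 0.26). For both genes the interval leaves out a 2-fold change of the array signal. A change within the interval cannot be told from none with 3 arrays a group. KLF4 was dim, with group means of 6.15 and 6.25 where the array medians were 6.25 to 6.36. Its background is unknown, so a change of its transcript may be understated.

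Of the members that recruit SIN3, KLF11, KLF13 and KLF9 rose and KLF10 was not called. KLF11, a TGF-beta inducible repressor that also acts in pancreatic beta cells, had levels of 7.91, 7.76 and 7.89 on the Parent arrays and 8.82 on each of the IDTC arrays. Its log2 fold change was 0.97 ± 0.06 (1.96-fold, limma adjusted p = 9.4e-06), the largest among the 10 members on all 6 arrays. Without Parent 3 it was level with KLF7, at 0.99 for both. The 3 IDTC values are identical to the last deposited digit, so their SD of 0 understates the spread. Such ties were found on all arrays of a group for 1.24% of the 33297 probe sets in Parent and 0.676% in IDTC cells, and any given pair of arrays shared 2.18% to 4.38% of their values.

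KLF13, known for induction of the chemokine gene CCL5 in T cells, read 6.92, 6.95 and 7.15 in Parent and 7.69, 7.64 and 7.69 in IDTC cells. The groups were apart, and KLF13 rose by 0.67 ± 0.07 (1.59-fold, limma adjusted p = 1.9e-04). It was the only member with a further probe set, a dimmer one annotated from 1 cDNA record. That probe set read 5.43 ± 0.08 and 5.44 ± 0.03 and was not called (log2 fold change 0.01 ± 0.06, limma adjusted p = 0.90), and the mean of both probe sets gave 0.34 for KLF13.

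KLF9, an early target of the glucocorticoid and thyroid hormone receptors, measured 8.17, 8.08 and 8.24 on the Parent arrays and 8.54, 8.55 and 8.56 on the IDTC arrays. Every IDTC array was higher than every Parent array. The log2 fold change was 0.38 ± 0.06 (1.30-fold, limma adjusted p = 1.3e-03), the smallest of the called members.

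KLF10, the TGF-beta inducible early gene, read 8.52, 8.51 and 8.49 in Parent and 8.48, 8.42 and 8.41 in IDTC cells. All IDTC values were below all Parent values, but by a difference of only -0.07 ± 0.05 on the log2 scale (95% confidence interval -0.19 to 0.05). KLF10 was therefore not called (limma adjusted p = 0.30).

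Ordered by log2 fold change, the members ran KLF11 (0.97), KLF3 (0.92), KLF7 (0.86), KLF13 (0.67), KLF6 (0.50), KLF9 (0.38), KLF4 (0.10), KLF2 (0.08), KLF10 (-0.07) and KLF5 (-0.59). Neighbours among the 6 that rose had overlapping 95% confidence intervals. The interval of KLF11 (0.83 to 1.11) and that of KLF3 (0.77 to 1.07) lay above those of KLF6 (0.36 to 0.64) and KLF9 (0.24 to 0.53). Differences between members were not tested.

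The 5 genes whose 6 array values lay nearest to those of KLF11, the member with the largest change on all 6 arrays, were PRPSAP1, RRAS, GTF2IRD1, TUBA1A and SCN8A. Likeness was the Euclidean distance between log2 values after each gene was centred on its own mean, and it ran from 0.063 for PRPSAP1 to 0.077 for SCN8A over 6 arrays. With 2 groups this measure mostly picks genes of the same fold change, which was 0.96 for PRPSAP1, 0.99 for RRAS, 0.96 for GTF2IRD1, 1.00 for TUBA1A and 0.97 for SCN8A.

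Of the other 15 KLF and SP genes measured, 6 rose, 1 fell and 8 were not called, so that 46.7% were called beside 46.6% of all genes. KLF15, which regulates gluconeogenesis and amino acid breakdown and is another glucocorticoid target, rose from 6.37 ± 0.10 to 7.57 ± 0.10 (2.31-fold, limma adjusted p = 1.3e-05). KLF16, a SIN3-binding repressor, fell from 8.67 ± 0.06 to 7.49 ± 0.02 (2.26-fold, limma adjusted p = 2.9e-06). KLF12 rose by 0.61 ± 0.08. The ubiquitous factors SP1 and SP3 rose by 0.61 ± 0.08 and 0.28 ± 0.08, SP2 by 0.50 ± 0.05 and SP4 by 0.55 ± 0.06. The SP3 call (limma adjusted p = 0.028) was lost when any 1 of 4 arrays was left out, Parent 1, Parent 3, IDTC 1 or IDTC 2 (limma adjusted p = 0.079 to 0.096). The genes not called were KLF1, KLF8, KLF14, KLF17, SP5, SP6, SP7 and SP8, with log2 fold changes from -0.17 to 0.18.

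Set by binding partner, 2 of 3 CtBP-binding genes rose (KLF3 and KLF12) and KLF8 was not called. KLF8 read 4.20 ± 0.24 and 4.19 ± 0.22, below the array medians of 6.25 to 6.36, so a change of it may be missed. Of 6 SIN3-binding genes 3 rose, 1 fell and 2 were not called. Of the 6 remaining activator genes, KLF1 included, 2 rose, 1 fell and 3 were not called. Each subgroup thus held called and uncalled genes, where 46.6% of all genes were called, 21.7% higher and 24.9% lower. KLF15, which rose, and KLF17, which was not called, were placed in no subgroup.

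**Figure D2:**
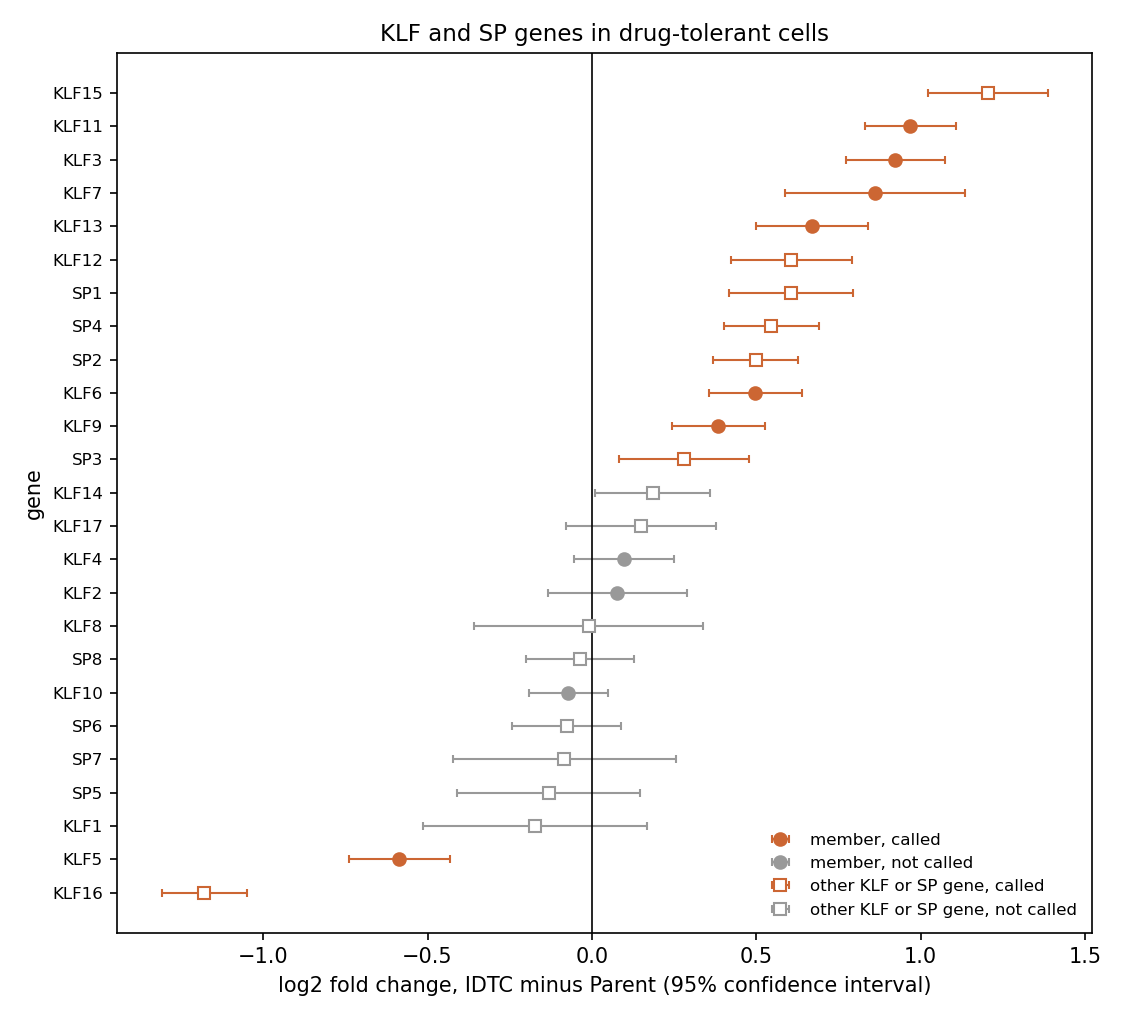
Log2 fold change, IDTC minus Parent, with its 95% confidence interval (horizontal axis), for the 10 members (circles) and the other 15 measured KLF and SP genes (squares), coloured where limma called them. KLF15 is at the top at 1.20 and KLF16 at the bottom at -1.18, with the members between them.

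Limma called 7 of 12 genes of the partner proteins through which KLF repressors act, 6 of them lower and 1 higher, where 24.9% of all genes were called lower and 21.7% higher. The median log2 fold change was -0.24 over the list. The histone deacetylase gene HDAC2 fell by 0.70 ± 0.09, CTBP2 fell by 0.56 ± 0.05, the SIN3 complex gene SAP18 fell by 0.49 ± 0.06 and FHL3, a LIM protein that binds KLF3, fell by 0.48 ± 0.05. SUDS3 was the gene that rose (0.24 ± 0.06), and its call was lost after re-centring (limma adjusted p = 0.062) and without Parent 2, Parent 3, IDTC 1 or IDTC 2 (limma adjusted p = 0.054 to 0.065). CTBP1 and SIN3A were not called (-0.16 and -0.14).

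Of 7 genes of the MEK5, ERK5 and MEF2 route that induces KLF2 and KLF4, 3 rose and 4 were not called (median 0.14). The share called was 42.9%, against 46.6% of all genes. None of the 7 was called lower in limma, and none was lower at an unadjusted p under 0.05. MAP3K3, a kinase upstream of MEK5, rose by 1.26 ± 0.07 and MAP2K5, which encodes MEK5, by 0.53 ± 0.08. MEF2C, a transcription factor at the end of the route, rose by 1.09 ± 0.06, but MEF2A (-0.04 ± 0.05) and MEF2D (0.11 ± 0.05) were not called. MAPK7, which encodes ERK5, was not called (-0.14 ± 0.06), nor was MAP3K2 (0.14 ± 0.08). With quantile normalization 5 of the 7 genes were called. KLF2, whose promoter above holds the MEF2 match, and KLF4 were not called themselves. Activity of the route was not measured, and a link between these genes and KLF2 or KLF4 was not tested.

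Genes for enzymes that degrade KLF proteins were split, with 3 of 7 higher, 2 lower and 2 not called (median 0.11). For comparison, 46.6% of all genes were called, 21.7% higher and 24.9% lower. FBXW7, the ubiquitin ligase subunit that recognises KLF5 among other proteins, rose by 0.55 ± 0.10, SIAH1 by 0.51 ± 0.13 and BTRC by 0.39 ± 0.06, and SMURF1 fell by 0.43 ± 0.07. Without IDTC 2 the count of called genes was 3, as SIAH1 and WWP1 (-0.30 ± 0.08) lost their calls (limma adjusted p = 0.052 and 0.064). The SIAH1 call was also lost without Parent 3 and without IDTC 3, and that of WWP1 without IDTC 3. Protein levels were not measured.

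KLF9 and KLF15 are glucocorticoid targets, and limma called 5 of 8 other genes of that response, 2 higher and 3 lower (median -0.12). The share called among all genes was 46.6%, with 21.7% higher and 24.9% lower. The leucine zipper gene TSC22D3 rose by 1.18 ± 0.08 and NR3C1, which encodes the glucocorticoid receptor, by 0.96 ± 0.09. ERRFI1, a feedback inhibitor of EGFR, fell by 1.98 ± 0.10 and the kinase gene SGK1 by 0.89 ± 0.05. DUSP1 fell as well, and ERRFI1 and DUSP1 are known to respond to ERK signalling too.

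KLF10 and KLF11 are early genes of TGF-beta, and limma called 8 of 11 genes of that pathway, 4 higher and 4 lower (median 0.13). Among all genes 46.6% were called, 21.7% higher and 24.9% lower. The receptor gene TGFBR2 rose by 2.20 ± 0.05 (4.58-fold), from 9.05 ± 0.03 to 11.25 ± 0.02, while the other receptor gene TGFBR1 fell by 0.72 ± 0.07. The ligand genes TGFB1 and TGFB3 fell by 1.56 ± 0.11 and 0.91 ± 0.09.

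Of 13 genes reported as targets of KLF proteins, limma called 4 (30.8%, against 46.6% of all genes), 3 of them lower and 1 higher (median -0.03). CDKN1A, which encodes the cell cycle inhibitor p21 and is induced by KLF4 and KLF6 in other cells, fell by 2.09 ± 0.08. The cyclin D1 gene CCND1, which KLF5 can induce, fell by 1.00 ± 0.06. BMAL1, the clock gene repressed by KLF10, rose by 0.75 ± 0.11, and TXNRD2, repressed by KLF9, fell by 0.23 ± 0.07. The TXNRD2 call was lost without Parent 2, Parent 3 or IDTC 1 (limma adjusted p = 0.078 to 0.094). The KLF2 targets THBD, NOS3 and S1PR1 had log2 fold changes of -0.15, -0.02 and 0.01 and were not called, as was the KLF13 target CCL5 (-0.08). In Parent and IDTC cells S1PR1 read 3.68 and 3.69, NOS3 5.93 and 5.91 and CCL5 5.50 and 5.42. These levels lie below the array medians of 6.25 to 6.36, so changes of these genes may be missed.

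**Figure D3:**
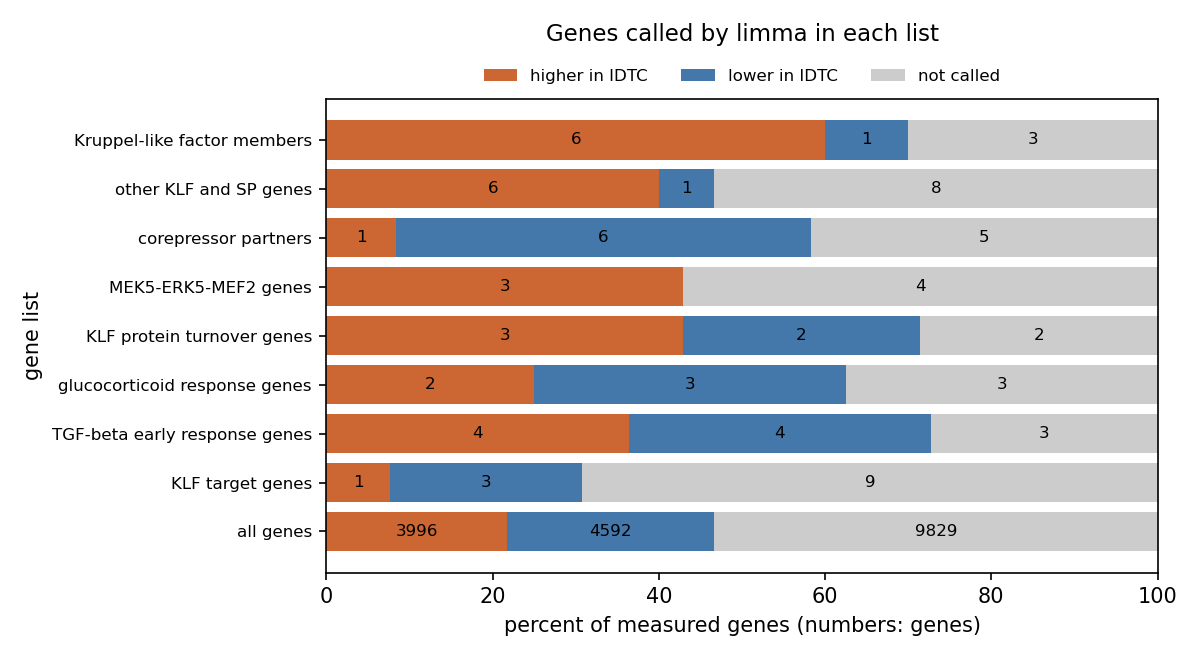
Percent of measured genes in each list (horizontal axis) that limma called higher (orange) or lower (blue) in IDTC cells or did not call (grey), with the number of genes printed in each bar. The members show 6 higher and 1 lower of 10, against 3996 higher and 4592 lower of all 18417 genes.

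The melanocyte markers had group means between 8.24 (PAX3) and 13.40 (PMEL) on the log2 scale, and of 7 measured, 5 rose, 1 fell (S100B) and MITF was not called. Across all genes 46.6% were called, 21.7% higher and 24.9% lower. KLF2, KLF4, KLF5 and KLF13 are high in endothelial, epithelial or white blood cells, so the markers of these cells were read as well. None of 6 endothelial markers was called by limma or had an unadjusted p under 0.05, and their summed log2 level was 32.03 to 32.80 in Parent and 32.01 to 32.64 in IDTC cells. Of 7 epithelial markers 1 fell (KRT18), of 4 leukocyte markers 1 fell (LYZ) and of 5 fibroblast markers 1 fell (LUM). The summed log2 levels in Parent and IDTC cells were 44.47 to 45.49 and 42.78 to 43.48 for the epithelial, 21.83 to 21.93 and 18.76 to 19.08 for the leukocyte and 30.67 to 31.11 and 29.93 to 30.27 for the fibroblast markers. Single genes carried these sums, with log2 fold changes of -2.14 for KRT18, -3.03 for LYZ and -0.89 for LUM. The uncalled markers ranged from -0.04 to 0.08 (epithelial), -0.11 to 0.14 (leukocyte) and -0.05 to 0.11 (fibroblast). The part of these markers in the fall of KLF5 or in any other result was not tested. Arrays of 1 group correlated at r = 0.995 to 0.998 across genes and arrays of different groups at 0.953 to 0.957.

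**Figure D4:**
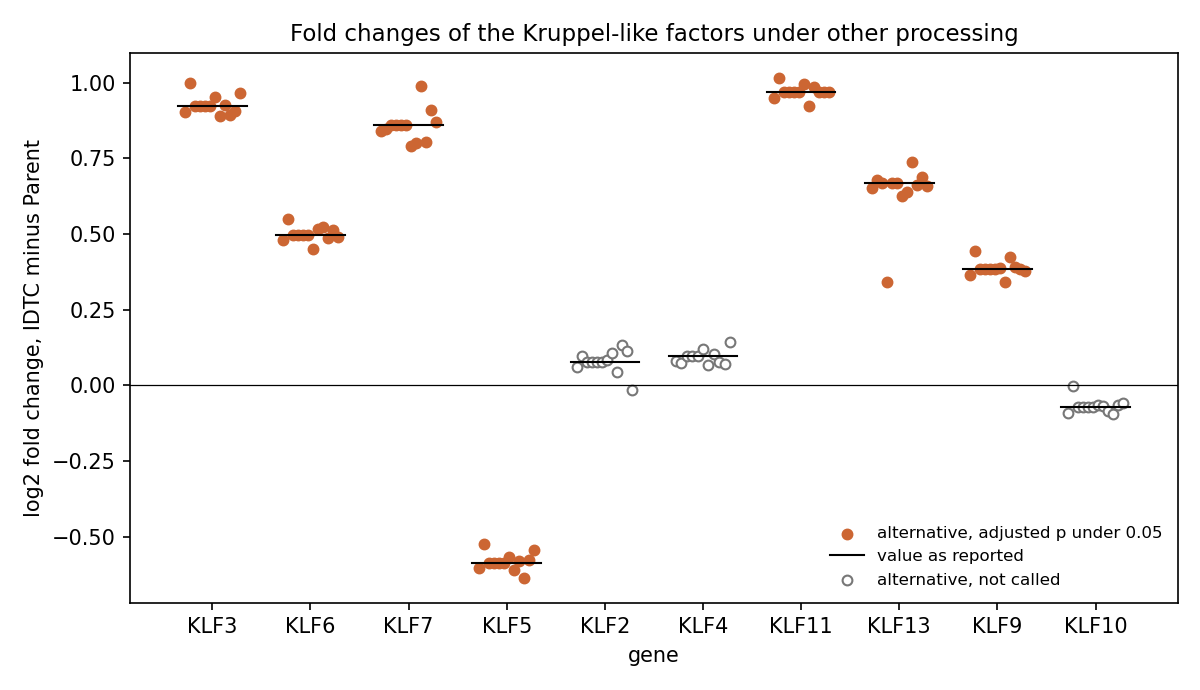
Log2 fold change of each member, IDTC minus Parent (vertical axis), as reported (black line) and under each of 12 other ways of processing, or 11 for KLF4 (points, filled where the adjusted p was under 0.05). The called members keep filled points throughout, the low point of KLF13 at 0.34 is the mean of its probe sets, and the lowest point of KLF2 at -0.02 leaves out the third IDTC array.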

How the data were processed

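Expression was measured on 3 Parent and 3 IDTC arrays, grouped by sample title. The authors deposited 1 table of normalized log2 expression for 33297 probe sets. Affymetrix Expression Console, RMA and Partek 6.6 are named in the submitters' processing notes, with no role or order, and no genome build is named in the sources used here. The array medians were 6.25 to 6.36. The table holds no detection call, so background is unknown for each gene, and changes of dim genes are probably understated. The number of arrays limits the precision.

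The platform annotation gave 1 symbol for 19460 probe sets, several for 1754, and did not list 12083. The brightest probe set stood for each of 18417 genes, all 10 member symbols matching RefSeq by gene number. The test was limma's (version 3.58.1, R 4.3.3), with lmFit and eBayes, 2-sided, on IDTC minus Parent, without covariates or a filter on dim genes, and the procedure was tested on simulated data. Named were all members, the called KLF and SP genes, up to 4 called genes per further list by size of change, and the 5 genes nearest to the member with the largest change. SUDS3, CTBP1, SIN3A, MAP3K2, MAPK7, MEF2A, MEF2D, WWP1, DUSP1 and the uncalled KLF targets THBD, NOS3, S1PR1 and CCL5 were added after their values were seen. Some listed genes, KLF18 and SP9 among them, were not analysed here. The members and lists were chosen with earlier results of these data known. Alternatives were 2 other scalings, leaving out the dimmest 40% of genes, the mean of all probe sets, another variance prior, a replicate block and leaving out each array.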

Additional observations from a re-analysis of the deposited data

How the results depend on the processing

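Of 119 values of the 10 members under 12 alternatives, 118 kept their direction and their side of the threshold, and the other was KLF2, at -0.016 without IDTC replicate 3, within a range of -0.016 to 0.135 when 1 array was left out. KLF4 was not tested without the dimmest 40% of genes, a filter it did not pass. The members' median was 0.36 with the mean of all probe sets in place of 0.44, since the dimmer KLF13 probe set lowers it. That probe set was examined alone only after the data had been seen. The count of called MEK5, ERK5 and MEF2 genes was 5 with quantile normalization in place of 3, and the cause was not tested. Leaving out 1 array at a time gave 3 to 5 called genes of KLF protein turnover. Among the 44 other called genes followed under these alternatives, 17 of 528 values lost their call and none reversed. Whether the sample numbers pair the arrays is not known. Deviations from the group means correlated at 0.32, -0.19 and 0.26 for numbers 1, 2 and 3. Parent 1 was closest to IDTC 1, and Parent 2 and Parent 3 were both closest to IDTC 3. With 3 numbers these values cannot decide it. With a replicate block 8855 genes were called in place of 8588, and among the members again 6 higher and 1 lower. With 4 residual degrees of freedom, small changes such as those of KLF2, KLF4 and KLF10 cannot be told from none.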
